A study of Homo sapiens with 4 samples.

Results

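Nucleolar ribosome biogenesis factors, the proteins that transcribe, modify, cut and fold ribosomal RNA before it leaves the nucleus, were examined on arrays of DLD-1 human colorectal cancer cells that overexpress miR-21. Members were taken by gene symbol, as all probes whose only symbol in the platform annotation starts with RRP, UTP, NOP or NOL followed by a digit, is a POLR1 subunit from A to E, or is BOP1, FBL, DKC1, NCL, NPM1, PES1 or WDR12. The rule reads symbols only, but the members and the lists below were chosen with earlier results of these data known. It gave 61 probes of 46 genes among 31741 probes of 18365 genes. RNA came from 2 lines made from parental DLD-1 cells, DLD-1-miR-21 with a plasmid for human miR-21 and DLD-1-vector (labelled DLD-1-miR-Vec) with the empty pCMV-MIR plasmid, each measured on 2 single-color Cy5 arrays (Human OneArray Plus). Cells of both lines had been transfected with PolyJet, were kept under G418 for 2 months (1 mg/mL in selection, 0.5 mg/mL in later culture) and carried a green fluorescent protein reporter. Clones were picked by green fluorescence and then pooled, so each line was 1 pool of clones. An effect of miR-21 and a difference between the pools therefore cannot be told apart. Whether separate cultures lie behind the arrays of each line is not stated, so the spread that the p-values measure may be technical.

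A ribosome begins in the nucleolus, where RNA polymerase I transcribes a long precursor of ribosomal RNA. Small nucleolar ribonucleoprotein particles (snoRNPs) of the box C/D kind guide methylation and those of the box H/ACA kind guide the change of uridine to pseudouridine, and a large assembly called the small subunit processome cuts and folds the part that becomes the small subunit, while other factors build the large subunit. Growing cancer cells usually make many ribosomes, and MYC is a known activator of many of these genes. The plasmids of the lines differed in miR-21, whose mature strand hsa-miR-21-5p comes from GRCh38.p14 chr17:59841273-59841294 on the plus strand. It is shown because its bases 2 to 8, in capitals, are the seed with which it pairs to target transcripts (sequence from RefSeq).
hsa-miR-21-5p: uAGCUUAUcagacugauguuga

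The deposited values were linear intensities, and negative ones among them show that a background had been taken off. DLD-1-vector arrays had a median of 571 each and DLD-1-miR-21 arrays medians of 255 and 339, so the lines had not been brought to a common median. Whether arrays within a line had been scaled to each other is not stated. The values were quantile-normalized, which gives all arrays the same distribution, and 50 was added before the log2 was taken. A negative log2 ratio below means a lower level in DLD-1-miR-21 cells on this scale, and ratios were tested with limma with adjusted p-values over all 31741 probes and a threshold of 0.05. Across all probes, log2 values correlated with r = 0.984 and 0.990 within the lines and 0.909 to 0.940 between them, although probes are not independent replicates. Of the 11 epithelial and colonic marker genes with a probe, 9 had one above the median signal of the array, among them KRT19, EPCAM and CDH1. KRT8 and CEACAM5 had none. A probe above that median was also found for 2 of 8 fibroblast, 5 of 7 immune and 2 of 4 endothelial genes. COL1A1, CD14 and 1 probe of CD3D were bright, while COL3A1 and both probes of the leukocyte marker PTPRC were dim. The summed normalized intensity was 231675 and 242863 in DLD-1-vector and 217135 and 221791 in DLD-1-miR-21 cells for the epithelial list, 15510 to 17582 and 27607 to 36923 for the immune list of 7 genes with a probe, 3481 to 4742 and 6273 to 8175 for the fibroblast list of 8 genes, and 1780 to 1902 and 3330 to 3451 for the endothelial list of 4 genes. Of the 12 epithelial probes, 2 were lower (EPCAM and KRT8) and 4 higher (VIL1, CDX1, CEACAM5 and KRT20), beside 21.8% and 23.0% of all probes. The bright CD3D probe of the immune list had 10392 and 11228 on DLD-1-vector arrays against 18620 and 26843. The part of these shifts in the results below was not tested. No probe of this table was annotated to miR-21 itself. Its host gene VMP1 had a log2 ratio of 1.35 (adjusted p = 0.00363 from limma), and the known target PDCD4 had -0.65 (adjusted p = 0.0225) on a dim probe and -0.08 (adjusted p = 0.617) on a brighter probe.

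Ribosome biogenesis probes were more often lower than higher in DLD-1-miR-21 cells. Of the 61 probes, 31 were lower and 3 higher, while 27 did not pass the test. Over all probes, 21.8% were lower and 23.0% higher, and among probes above the median signal 26.4% were lower and 28.2% higher. The median log2 ratio was -0.78 over the members, with quartiles of -1.64 and 0.03, and 0.07 over all probes. The members were bright, with 54 of 61 probes above the median signal, and among these 54 probes 27 were lower and 3 were higher. By gene, 29 of 46 genes had at least 1 probe that was lower, 3 had 1 that was higher and 15 had none past the threshold. Of the 29 genes, 7 were lower on only some of their probes, and NOL11 counts in both directions. Genes with several probes have more chances of a call, and the share over all genes was not counted. Both DLD-1-miR-21 arrays lay below both DLD-1-vector arrays on 41 member probes and above them on 13, where the shares over all probes were 34.8% and 41.4%, and 76.2% for either. A lower call of at least 1 log2 unit was made on 25 member probes and a higher one on 2, beside 12.2% and 9.34% of all probes. Replicate arrays lay close together on most members, with a median standard deviation (SD, n = 2) of 0.08 log2 units within a line. RNA of many cells was pooled on each array, so fewer cells that express a gene and less of its RNA per cell cannot be told apart.

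The calls depended on the scaling and on DLD-1-miR-21 replicate 2. Without that array the members' median log2 ratio was -0.63, beside 0.07 over all probes, and 43 of 61 member ratios were negative. Without normalization between arrays, the log2 ratio over all probes had a median of -0.63, 416 probes were higher and 14025 lower over the whole table, and 0 member probes were higher and 55 lower. When DLD-1-miR-21 replicate 2 was left out, 0 member probes passed the threshold in either direction, with a smallest adjusted p of 0.0551 from limma, and 31 lower and 4 higher at an unadjusted p under 0.05. With that array left out, 0 probes of the whole table passed either.

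**Figure D1:**
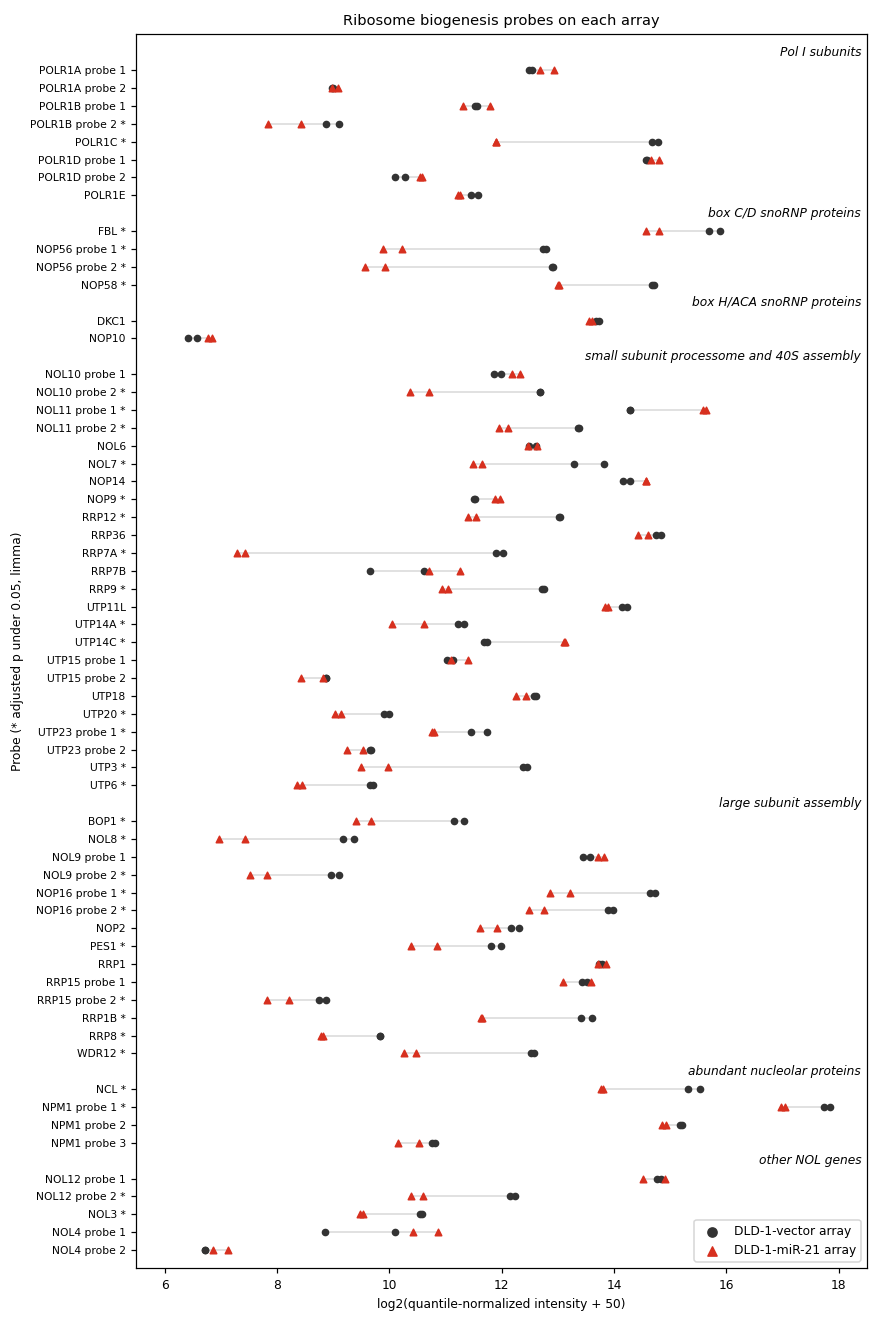
Level of each of the 61 member probes on the 4 arrays, as log2 of the quantile-normalized intensity plus 50 on the horizontal axis, with probes in rows by role, black circles for DLD-1-vector and red triangles for DLD-1-miR-21 arrays, and an asterisk for an adjusted p under 0.05. The triangles lie left of the circles on 41 probes, farthest on RRP7A.

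The box C/D snoRNP proteins among the members, FBL, NOP56 and NOP58, were lower on all 4 of their probes, beside 21.8% of all probes. FBL (fibrillarin) is the methyltransferase of the particle, and NOP56 and NOP58 are the paired scaffold proteins that hold it on the guide RNA. The NOP56 probe with the larger change had normalized intensities of 7632 and 7592 in DLD-1-vector cells and of 920 and 709 in DLD-1-miR-21 cells (log2 ratio -3.16 with a standard error of 0.16, limma adjusted p = 0.00196). The other NOP56 probe had 6756 and 7071 against 1143 and 893 (log2 ratio -2.71, adjusted p = 0.00218). Both probes of this gene thus gave a decrease of similar size, 8.93-fold and 6.56-fold. NOP58 had 25975 and 26856 against 8297 and 8165 (log2 ratio -1.68, adjusted p = 0.00246). FBL, among the brightest members, had 53186 and 60534 against 28650 and 24259 (log2 ratio -1.10, adjusted p = 0.00791). On each of these 4 probes the lines did not overlap, which held for 76.2% of all probes. Without DLD-1-miR-21 replicate 1, FBL had an adjusted p of 0.0511. NHP2L1, now SNU13, a core protein of the same particle that the symbol rule does not cover, had 6961 and 7576 against 5814 and 4697 and did not pass (log2 ratio -0.47, adjusted p = 0.0717). It is given here after its values were seen.

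Of the box H/ACA proteins, the members DKC1 and NOP10 did not pass the test, whereas GAR1, a core protein outside the symbol rule, was lower on both probes. DKC1 (dyskerin), the pseudouridine synthase of the particle, had 13571 and 13052 on DLD-1-vector arrays against 12001 and 12508, so the arrays of the lines lay close to each other. Its log2 ratio was -0.12, with a 95% confidence interval of -0.43 to 0.20. NOP10, a small scaffold protein, had 35 and 45 against 65 and 60 on its only probe, at percentile 7.96 of signal. This probe lay near the bottom of the range on all arrays and says little about NOP10. GAR1, which is also given after its values were seen, had 1716 and 1804 on DLD-1-vector arrays against 425 and 458 on 1 probe (log2 ratio -1.88, adjusted p = 0.00231) and 2708.6 and 2182.4 against 472 and 352 on the other (log2 ratio -2.44, adjusted p = 0.00293). The lines did not overlap on either GAR1 probe, which held for 76.2% of all probes. From the same list as GAR1, NAF1 (log2 ratios 0.10 and -0.21) and SHQ1 (0.23) did not pass, and NHP2 had no probe. The difference between DKC1 and the box C/D proteins or GAR1 was not tested.

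Among the subunits of RNA polymerase I, POLR1C stood apart. POLR1C and POLR1D are shared with RNA polymerase III, whereas POLR1A and POLR1B form the catalytic center and POLR1E is part of a subcomplex that aids initiation and elongation. The POLR1C probe had 28274 and 26101 on DLD-1-vector arrays and 3768 and 3771 on DLD-1-miR-21 arrays (log2 ratio -2.83 with a standard error of 0.12, limma adjusted p = 0.00196). Its arrays within each line nearly coincided and the lines were far apart. POLR1D, its partner in the enzyme, had 24254 and 24438 against 28573 and 25901 on the brighter probe (log2 ratio 0.16, 95% confidence interval -0.17 to 0.49). The dimmer POLR1D probe had 1044 and 1189 against 1485 and 1452 (log2 ratio 0.38, adjusted p = 0.0729). On both POLR1D probes the DLD-1-miR-21 arrays were the higher ones, which held for 41.4% of all probes, and neither POLR1D probe passed the test.

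The catalytic subunits gave smaller values. POLR1A had 5925 and 5704 on DLD-1-vector arrays against 7748 and 6545 on its brighter probe (log2 ratio 0.29, adjusted p = 0.162), and 457 and 465 against 494 and 458 on the dimmer probe (log2 ratio 0.04). POLR1B had 2980 and 2892 against 3498 and 2499 on the brighter probe (log2 ratio 0.01, 95% confidence interval -0.52 to 0.54). The arrays overlapped on this probe and on the dimmer one of POLR1A. The dimmer POLR1B probe had 420 and 500 against 296 and 180 (log2 ratio -0.85, adjusted p = 0.0455), a call at the threshold that was lost with an offset of 16 and when any array was left out. POLR1E had 2744 and 3014 against 2400 and 2342 (log2 ratio -0.27, adjusted p = 0.139). In all, 2 of the 8 polymerase probes were lower and 0 higher, with 25% lower against 21.8% of all probes.

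The small subunit processome and related 40S factors held the largest decrease and all 3 increases among the members. Of their 24 probes, 11 were lower (45.8%), 3 higher (12.5%) and 10 did not pass, beside 21.8% lower and 23.0% higher over all probes. RRP7A, a factor bound early to the precursor, had log2 levels of 11.90 and 12.03 on DLD-1-vector arrays and of 7.42 and 7.29 on DLD-1-miR-21 arrays (log2 ratio -4.61 with a standard error of 0.13, limma adjusted p = 0.00196). On the scale of the deposited intensities these were 5214 and 6073 against 80 and 105. The DLD-1-miR-21 intensities are close to the added 50, and the log2 ratio was -4.93 with 16 and -4.24 with 100 added. RRP7B, a transcribed pseudogene copy of RRP7A now named RRP7BP, had 761 and 1525 against 1623 and 2415 (log2 ratio 0.85, adjusted p = 0.142). Its DLD-1-vector arrays differed by more than most members did, and the copy did not show the decrease of RRP7A. Probe sequences were not used here, so hybridization of a transcript to the probe of its copy was not tested.

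UTP3, UTP6, RRP9, RRP12 and NOL7 were also lower. UTP3, a processome subunit known as SAS10 in yeast, had 5316 and 5575 on DLD-1-vector arrays against 955 and 669 (log2 ratio -2.69, adjusted p = 0.00259 from limma). RRP9, which binds the U3 guide RNA of the processome, had a log2 ratio of -1.74, RRP12, a factor of subunit export, one of -1.55, UTP6 one of -1.27 and NOL7 one of -1.98. NOL7 differed between the DLD-1-vector arrays, at 9942 and 14454, but both lay far above 2839 and 3173 in DLD-1-miR-21 cells. UTP20 had a log2 ratio of -0.86, UTP14A, a factor that activates a helicase of the processome, one of -0.93, and the brighter of the UTP23 probes one of -0.81 (adjusted p = 0.00846, 0.0314 and 0.016 from limma).

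UTP14C, an intronless copy of UTP14A, went the other way. It had 3360 and 3239 on DLD-1-vector arrays and 8867 and 8838 on DLD-1-miR-21 arrays (log2 ratio 1.41 with a standard error of 0.12, limma adjusted p = 0.003), against 2329 and 2514 and then 1529 and 1008 for UTP14A. Without normalization between arrays the log2 ratio of UTP14C was 0.15 and did not pass the test (adjusted p = 0.492). NOP9, an RNA-binding factor of the small subunit, had 2866 and 2886 against 3984 and 3735 (log2 ratio 0.42, adjusted p = 0.0472), and it did not pass when any array was left out, while its ratio turned to -0.02 with median centring and to -0.87 without normalization. The members of this group that did not pass on any probe were NOL6 (log2 ratio 0.00, 95% confidence interval -0.35 to 0.35), NOP14 (0.35), RRP36 (-0.27), UTP11L, now UTP11 (-0.32), UTP18 (-0.24), UTP15 (0.16 and -0.25) and RRP7B.

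**Figure D2:**
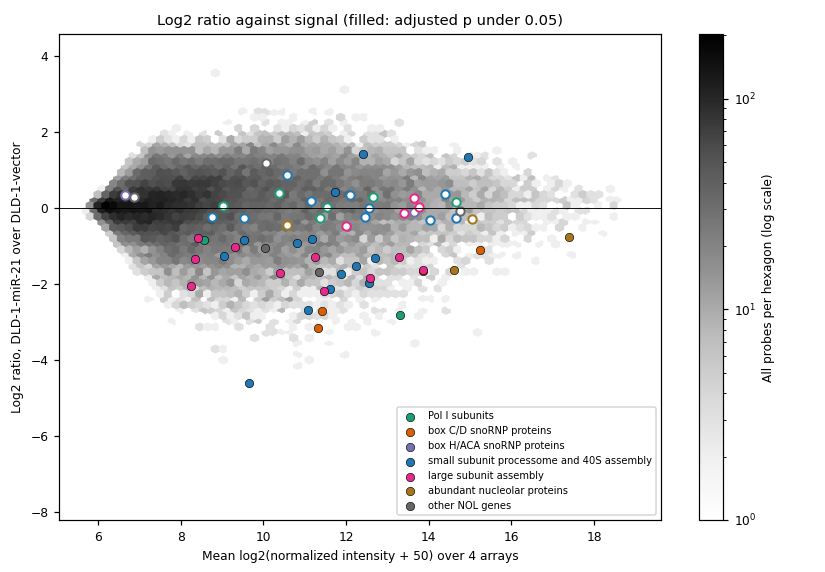
Log2 ratio between the lines, negative where DLD-1-miR-21 cells were lower (vertical axis), against the mean log2 level over 4 arrays (horizontal axis), with all 31741 probes as gray hexagons on a log color scale and the 61 members as circles colored by role, filled where the adjusted p was under 0.05. Filled members lie below 0 across the range of signal, with RRP7A lowest at -4.61, and 3 filled members lie above 0.

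Factors of the large subunit were lower on 10 of 14 probes (71.4%) and higher on 0, beside 21.8% and 23.0% of all probes. Their median log2 ratio was -1.30. BOP1, PES1 and WDR12 form the PeBoW complex, which is needed to cut the precursor of the large subunit RNAs, and each was lower on its only probe. WDR12 had 5834 and 6030 on DLD-1-vector arrays against 1373 and 1172 (log2 ratio -2.18, adjusted p = 0.00223 from limma). BOP1 had 2525 and 2239 against 763 and 628 (log2 ratio -1.71, adjusted p = 0.00349). PES1 had 3553 and 4005 against 1790 and 1283 (log2 ratio -1.29, adjusted p = 0.0105). The lines did not overlap on any of the 3 probes, which held for 76.2% of all probes. NOP16 was lower on both of its bright probes, at -1.65 and -1.31, and RRP1B at -1.86.

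RRP8, a methyltransferase that acts on large subunit RNA, had 866 and 862 on DLD-1-vector arrays against 400 and 392 (log2 ratio -1.04, adjusted p = 0.00503 from limma). NOL8 was dim in DLD-1-miR-21 cells, at 526 and 617 against 123 and 75 (log2 ratio -2.08, adjusted p = 0.0041). NOL9, a polynucleotide kinase of precursor cutting, was lower on its dim probe (-1.36) and not on its bright one (0.26, adjusted p = 0.166). RRP15 was likewise lower on its dim probe (-0.79, adjusted p = 0.0259) and had -0.13 on its bright one. NOP2, which methylates large subunit RNA, had a log2 ratio of -0.48 (adjusted p = 0.0692) and passed with cyclic loess or median centring. RRP1 had 14037 and 13630 against 13367 and 14828 (log2 ratio 0.03, 95% confidence interval -0.31 to 0.36), with overlapping arrays.

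The abundant nucleolar proteins differed in size of change. NCL (nucleolin), which binds precursor RNA, had 40985 and 47444 on DLD-1-vector arrays against 14292 and 13844 (log2 ratio -1.64 with a standard error of 0.14, limma adjusted p = 0.003). NPM1 (nucleophosmin), a chaperone of the nucleolus, had 234370 and 219850 against 128290 and 135250 on its brightest probe (log2 ratio -0.78, adjusted p = 0.0103). Its other probes had 37636 and 37088 against 29473 and 31004 (log2 ratio -0.31, adjusted p = 0.0981), and 1678 and 1752 against 1087 and 1424 (-0.45, adjusted p = 0.0966). On all 3 NPM1 probes both DLD-1-miR-21 arrays were the lower ones, which held for 34.8% of all probes, and 1 of 3 passed. The brightest probe did not pass without DLD-1-miR-21 replicate 1 (adjusted p = 0.067).

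The symbol rule also took in NOL3, NOL12 and NOL4, which are not all assembly factors. NOL3 encodes a repressor of apoptosis rather than an assembly factor, and it was lower (1491 and 1450 against 689 and 665, log2 ratio -1.07, adjusted p = 0.00488 from limma). NOL12, a nucleolar RNA-binding protein, was lower on 1 probe (-1.69) and had -0.09 on the brighter one. NOL4 had 1043 and 414 on DLD-1-vector arrays against 1326 and 1825 on its brighter probe (log2 ratio 1.17, standard error 0.45, adjusted p = 0.0985). Its DLD-1-vector arrays had an SD of 0.87 log2 units, the largest within a line among the members. The dim NOL4 probe, at percentile 11.2 of signal, had 55 and 56 against 66 and 90.

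Among members, different probes of a gene could disagree. Of 14 member genes with several probes, 2 (NOP16 and NOP56) were lower on every probe, 7 were lower on some, 4 passed on none, and NOL11 passed in opposite directions. These patterns were not counted over all genes with several probes, so they may not be particular to the members. NOL11, a processome subunit that also takes part in transcription of ribosomal RNA, had 19814 and 19802 on DLD-1-vector arrays against 49115 and 50712 on its brighter probe (log2 ratio 1.33, adjusted p = 0.00326 from limma). On its dimmer probe it had 10424 and 10571 against 4394 and 3904 (log2 ratio -1.33, adjusted p = 0.00384). Replicate arrays agreed closely on both probes, so the NOL11 probes differ by 2.66 log2 units far beyond their spread, and no direction can be given for the gene. Without normalization between arrays the brighter probe had 0.20 and the dimmer one -2.60. NOL10, another processome factor, had 3995 and 3658 against 5083 and 4627 on 1 probe (log2 ratio 0.34, adjusted p = 0.0971), and 6489 and 6532 against 1626 and 1268 on the other (log2 ratio -2.14, adjusted p = 0.00266). The files do not say which transcripts each probe detects. Among the 32 genes with 1 probe, 19 were lower and 2 higher, and 11 did not pass, beside 21.8% lower and 23.0% higher over all probes.

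**Figure D3:**
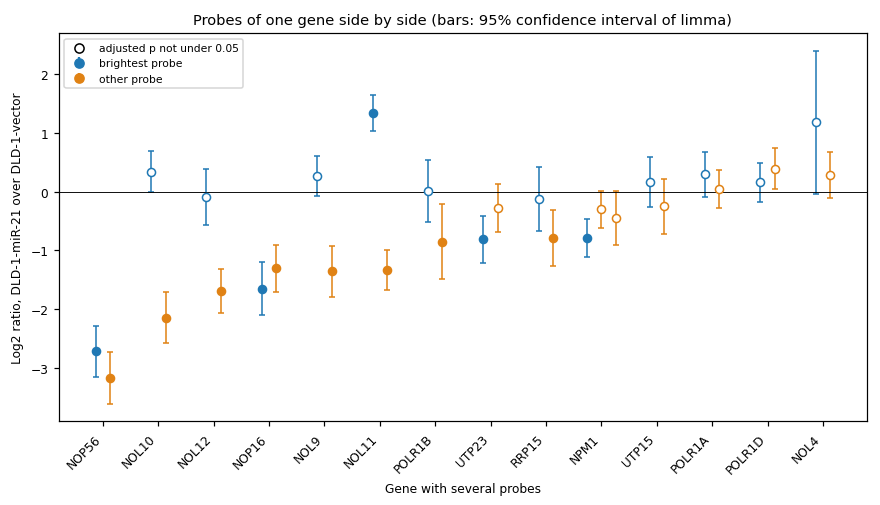
Log2 ratio of each probe (vertical axis) for the 14 member genes with several probes (horizontal axis), with bars for the 95% confidence interval from limma, blue for the brightest probe, orange for others, and open circles where the adjusted p was not under 0.05. NOP56 and NOP16 have all probes below 0, while the NOL11 probes lie at 1.33 and -1.33.

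The other genes of the pathway, from a list that the symbol rule does not cover, were shifted in the same direction. Of 126 genes listed, 120 had a probe, 159 probes in all, and 72 of these were lower and 19 higher, that is 45.3% and 11.9% against 21.8% and 23.0% of all probes. Their median log2 ratio was -0.44. By role, 27 of 52 small subunit probes were lower and 7 higher, 31 of 62 large subunit probes were lower and 6 higher, and 6 of 14 snoRNP probes were lower and 2 higher. Among factors of RNA polymerase I, 4 of 20 probes were lower and 4 higher. These counts fell to 0 in both directions without DLD-1-miR-21 replicate 2, and to 47 lower and 0 higher without DLD-1-miR-21 replicate 1.

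MYC, an activator of ribosome biogenesis genes, had normalized intensities of 961 and 861 on DLD-1-vector arrays against 22 and 117 on its only probe (log2 ratio -3.13 with a standard error of 0.42, limma adjusted p = 0.00749). The values in DLD-1-miR-21 cells lie near the added 50, which limits the size of this ratio. RRN3, which brings RNA polymerase I to its promoter, went the other way after normalization, at 3579 and 4032 against 6835 and 6216 (log2 ratio 0.77, limma adjusted p = 0.0139). On the deposited scale RRN3 had 4941 and 5941 against 3807 and 3862, so its direction depended on the scaling. Without normalization between arrays, 0 of the 159 other pathway probes were higher. UBTF, a factor that binds ribosomal DNA, had log2 ratios of 0.37 and -0.14 and did not pass on either probe. TAF1D, of the selectivity factor of the polymerase, had -2.99, and CD3EAP (a polymerase subunit, now POLR1G) was lower at -1.66 on a dim probe and higher at 0.96 on a bright one. The processome subunit HEATR1 had -2.12, 0.28 and 0.76 on its 3 probes, the outer ones past the threshold in opposite directions.

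In the assembly of snoRNPs, PIH1D1 had -3.69 on 1 probe and 0.06 on another, and NUFIP1 had -2.88, whereas ZNHIT6 had 1.05 and 0.07 and the helicase RUVBL1 had 0.66. Among small subunit factors, the lowest log2 ratios were those of LTV1 (-2.84) and PNO1 (-2.51), both of the late 40S precursor, and the highest those of WDR43 (0.95) and of a probe of the methyltransferase DIMT1 (0.89), whose other probe had -1.25. Among large subunit factors, BRIX1 was lower on both probes (-3.71 and -1.67) and TEX10 had -2.85, while NSA2 had 1.09 and DDX31 had 1.05 and -0.49. Of 11 probes of nucleolar regulators, 4 were lower and 0 higher, beside 21.8% and 23.0% of all probes, with a median log2 ratio of -0.07. The lower ones were MYC, NPM3 (-1.82), RPL5, a ribosomal protein of the large subunit (-1.62), and 1 probe of TCOF1 (-0.99). The other TCOF1 probe had 0.17, NOLC1 0.35 and 0.04, SURF6 0.02, CDKN2A 0.15 and -0.07, and RPL11 -0.31. These regulator probes, the ratios of 0.06 and 0.07 in snoRNP assembly and the -0.49 of DDX31 did not pass the test. All other ratios of this paragraph passed, but no increase among them did so without normalization between arrays.

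The proteins of the ribosome itself are given for comparison, with no test of the difference. Cytosolic ribosomal proteins had 33 of 108 probes lower and 23 higher, with a median log2 ratio of 0.02. Mitochondrial ribosomal proteins, which build another ribosome, had 56 of 102 probes lower and 11 higher, with a median of -0.57. The shares of lower probes were 30.6% and 54.9%, beside 50.8% for the members and 21.8% over all probes. A shift of this size was thus also present in mitochondrial ribosomal proteins.

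**Figure D4:**
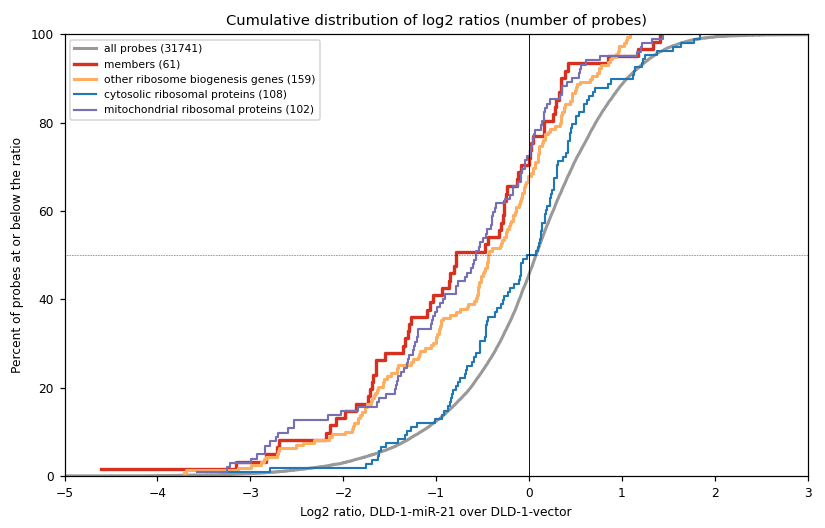
Percent of probes (vertical axis) at or below each log2 ratio between the lines (horizontal axis, negative where DLD-1-miR-21 cells were lower), for all 31741 probes in gray, the 61 members in red, 159 probes of other ribosome biogenesis genes in orange, 108 of cytosolic ribosomal proteins in blue and 102 of mitochondrial ribosomal proteins in purple. The red curve crosses 50% at -0.78 and the gray one at 0.07.

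The promoters of the members were searched for the E-box CACGTG, a sequence bound by MYC with MAX, which reads the same on both strands. RefSeq promoters (GRCh38.p14, from 250 bases before to 50 after the start of transcription) matched 38 of the 46 genes, and BOP1, NOL10, NOP58, POLR1E, RRP12, RRP1B, RRP7B and UTP23 had no entry. Of the 38 genes, 12 held the E-box (31.6%). It was present in 7.26% of all 35116 promoters of this length and, counted by gene over any promoter, in 10.9% of 15843 protein-coding genes. Among members with at least 1 lower probe 7 of 23 held it (30.4%). Among the others, which include the higher UTP14C and NOP9, 5 of 15 did (33.3%). The difference between these shares was not tested, and neither was a role of MYC. A match describes these letters only and is not a binding site. The first set of sequences shows 30 bases around the E-box, in capitals, for members that were lower (PES1, RRP9, UTP20 and NOL8) and for members that did not pass (NOL6 and NOP14). Their positions are chr22:30591880-30591909 (minus strand), chr3:51941892-51941921 (minus), chr12:101280083-101280112 (plus), chr9:92325342-92325371 (minus), chr9:33473894-33473923 (minus) and chr4:2963374-2963403 (minus).
PES1: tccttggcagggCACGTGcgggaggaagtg
RRP9: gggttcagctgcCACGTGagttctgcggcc
UTP20: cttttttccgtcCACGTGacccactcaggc
NOL8: gctccgttgggaCACGTGaccagaagttag
NOL6: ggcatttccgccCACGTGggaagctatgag
NOP14: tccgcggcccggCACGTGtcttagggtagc

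The whole promoters of FBL (chr19:39846330-39846629, minus strand) and NOP56 (chr20:2652382-2652681, plus strand) are shown from RefSeq because these partners in the box C/D particle were both lower and only that of FBL holds an E-box, again in capitals, whose first base is base 7 of the transcript.
FBL: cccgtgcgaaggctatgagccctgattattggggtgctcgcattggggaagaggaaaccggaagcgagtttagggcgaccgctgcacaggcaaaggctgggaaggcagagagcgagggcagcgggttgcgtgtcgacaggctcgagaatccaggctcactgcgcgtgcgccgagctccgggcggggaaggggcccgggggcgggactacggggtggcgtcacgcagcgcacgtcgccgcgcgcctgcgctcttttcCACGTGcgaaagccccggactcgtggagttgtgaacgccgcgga
NOP56: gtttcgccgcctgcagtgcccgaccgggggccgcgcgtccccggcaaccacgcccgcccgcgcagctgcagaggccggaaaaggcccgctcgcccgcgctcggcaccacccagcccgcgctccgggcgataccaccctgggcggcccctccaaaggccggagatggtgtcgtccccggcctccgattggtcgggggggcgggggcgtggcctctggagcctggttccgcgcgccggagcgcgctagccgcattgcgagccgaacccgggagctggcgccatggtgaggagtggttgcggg

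**Figure D5:**
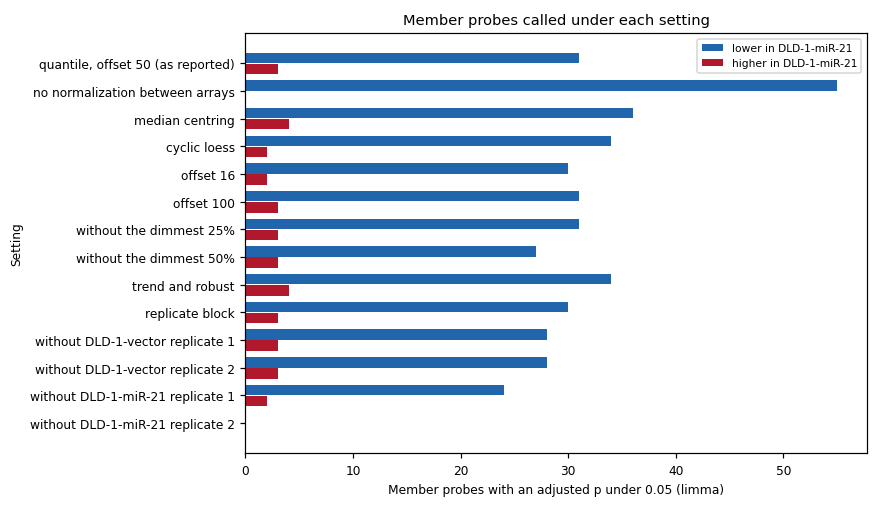
Number of member probes (horizontal axis) with an adjusted p under 0.05 from limma, lower in blue and higher in red, under each setting (vertical axis). The lower count runs from 24 to 36 in all settings but 2, with 55 without normalization between arrays and 0 without DLD-1-miR-21 replicate 2.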

How the data were processed

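The deposited table holds the authors' intensity values of 4 single-color arrays, on a linear scale with a background already subtracted. Their scanner settings and any earlier normalization are not given in the sources here. Symbols are those of an annotation of the platform that may be outdated, where 24740 probes had 1 symbol, 977 several and 6024 none. The intensities were quantile-normalized, 50 was added, and log2 values were tested with lmFit and eBayes of limma 3.58.1 in R 4.3.3 with the line as the only term (2 residual and 2.48 prior degrees of freedom) and Benjamini-Hochberg adjustment over all probes. The number of arrays limits the precision, and adding 50 makes changes of dim probes look smaller. Scripts were tested on simulated arrays. The members, lists and settings were chosen with earlier results of these data known. Every member gene is named. Values per array are given for polymerase, snoRNP, NCL, NPM1 and PeBoW probes and for the 8 largest changes past the threshold in each direction, and for other members where arrays or probes disagree. Of the other pathway genes, MYC, UBTF, RRN3, HEATR1 and all nucleolar regulators are named. In each other role, up to 2 with the largest increases and 2 with the largest decreases past the threshold are named. GAR1, NHP2L1, NAF1, SHQ1 and some of the regulators were added after their values were seen. Alternatives were no normalization, median centring, cyclic loess, offsets of 16 and 100, removal of the dimmest 25% or 50%, a robust fit with a trend in variance, the replicate block, and leaving out each array.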

Additional observations from a re-analysis of the deposited data

How the results depend on the processing

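Without normalization between arrays, where all probes had a median of -0.63, 55 member probes were lower and 0 higher, 127 of the other pathway probes were lower and 0 higher, the members' median was -1.57, and 55 of 61 members lay below the median of all probes. Of the 17 ratios above 0, 14 turned negative there, of which 11 passed the threshold, at -0.95 and -0.84 (POLR1A), -1.25 (POLR1B), -0.995 and -0.79 (POLR1D), -0.93 (NOL10), -0.83 (NOP14), -0.87 (NOP9), -1.08 (UTP15), -0.98 (NOL9) and -1.21 (RRP1). The others were NOP10 (-0.02), RRP7B (-0.37) and the dim NOL4 probe (-0.06). With median centring NOP9 had -0.022, all probes had a median of 0.22 and 55 of 61 members lay below it. The members' median was -0.69 with 100 added and -0.63 without the dimmest 50% of probes. Leaving out 1 array gave 0 to 28 lower and 0 to 3 higher member probes, 0 to 59 lower and 0 to 15 higher probes of the other genes, and medians of -0.70 to -0.63. The lower limits of 0 come from DLD-1-miR-21 replicate 2, and for the other genes' increases also from replicate 1. Same-numbered arrays are not known to be paired, and their deviations correlated at -0.07 across probes. With the replicate block 30 member probes were lower and 3 higher, and 61 and 15 of the others. It ended the calls of the dim POLR1B probe (adjusted p = 0.0647) and NOP9 (0.116), and RRP7B passed (0.0343). The members' lower count stayed between 27 and 36 under the other alternatives that kept all arrays and normalized them, with 27 to 31 of the 31 probes kept. NOL11 passed in opposite directions with cyclic loess and without the dimmest 50% too. Signal over background limits, among others, NOP10, the dim NOL4 probe and the DLD-1-miR-21 values of NOL8, RRP7A, MYC and TEX10. It also limits the DLD-1-miR-21 values of the HEATR1 probe at -2.12, the dim CD3EAP probe and the BRIX1 probe at -3.71. No group held enough arrays for a test of single arrays.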
